A study of Mus musculus with 16 samples.

Results

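Low-cycling cells are the 50% of sequenced light zone (LZ) germinal center (GC) B cells with the lowest expression of 16 cell cycle genes. They were chosen by a score, P, which is the mean over these genes of log2(CPM + 1) in a cell. CPM (counts-per-million) scales a gene's counts to the total of that cell, or below of that profile, and 1 is a pseudocount. The 16 genes were *Ccnb1*, *Ccnb2*, *Cdc20*, *Plk1*, *Cenpe*, *Cenpf*, *Hmmr*, *Tpx2*, *Mcm3*, *Mcm5*, *Mcm6*, *Cdc6*, *Gins2*, *Pcna*, *Rrm2* and *Ccne2*, which act in DNA replication or mitosis. In these cells, 5 hosts given acalabrutinib were compared with 3 hosts given vehicle. The low-cycling cells numbered 197 of 381 cells in the acalabrutinib hosts and 121 of 256 in the vehicle hosts, 24 to 59 in a host, with the counts of a host's low-cycling cells summed into 1 profile.

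The hosts were male C57BL/6J or B6.SJL mice that had been primed with ovalbumin, had received B1-8hi BTKC481S and B1-8hi BTKWT B cells together, and had been boosted with NP-OVA. B1-8hi cells carry an inserted heavy chain gene, and those with lambda light chains bind the hapten NP strongly. BTKC481S is a knock-in kinase that the inhibitor cannot bind covalently, so these cells are drug-resistant while BTKWT cells are drug-sensitive. Acalabrutinib or vehicle was delivered by oral gavage in repeated doses, and single cells were sorted from popliteal lymph nodes shortly after the last dose, in 2 independent experiments, and sequenced by SMART-seq2. Cell names give the host, as A (acalabrutinib) or V (vehicle) and a number, but not the genotype, and which host belongs to which experiment was not given in the sources used here. Both genotypes are therefore together in every profile, so each acalabrutinib profile holds an unknown share of drug-resistant cells, and the 2 experiments cannot be told apart from the hosts.

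In the GC, B cells mutate their receptor genes in the dark zone and are selected in the LZ, where they bind antigen on follicular dendritic cells and present it to T follicular helper (Tfh) cells. The B cell receptor (BCR) signals through LYN and SYK to an assembly of BLNK, BTK and PLCγ2. That assembly leads to calcium flux, NFAT and, through protein kinase C beta, BCL10 and MALT1, NF-κB. T cell help through CD40, together with BCR signals, induces *Myc*, and selected cells enter the cell cycle and return to the dark zone. LZ cells with low cell cycle expression include cells that have not entered the cycle, and the comparison asks which of their transcripts differ when BTK is inhibited.

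P ran from 0 to 8.94 over all cells. The last cell kept had a P of 3.04 and the first cell left out 3.06, so the threshold lies within a continuous range and marks no separate type. The median P was 0.973 in low-cycling and 4.81 in the remaining, high-cycling, cells. Of the cells of the acalabrutinib hosts A7, A8, A10, A11 and A12, 53.3, 66.3, 50, 41.2 and 50.6% were low-cycling, and of those of the vehicle hosts V5, V7 and V9, 49.3, 49.1 and 45.4%. A7, A8, A10 and A12 lay above every vehicle host, with A8 the highest, while A11 lay below every vehicle host. The threshold was set over the cells of all hosts together. These shares, and the genes of P below, depend on that choice of the cells and are given with no test.

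**Figure D1:**
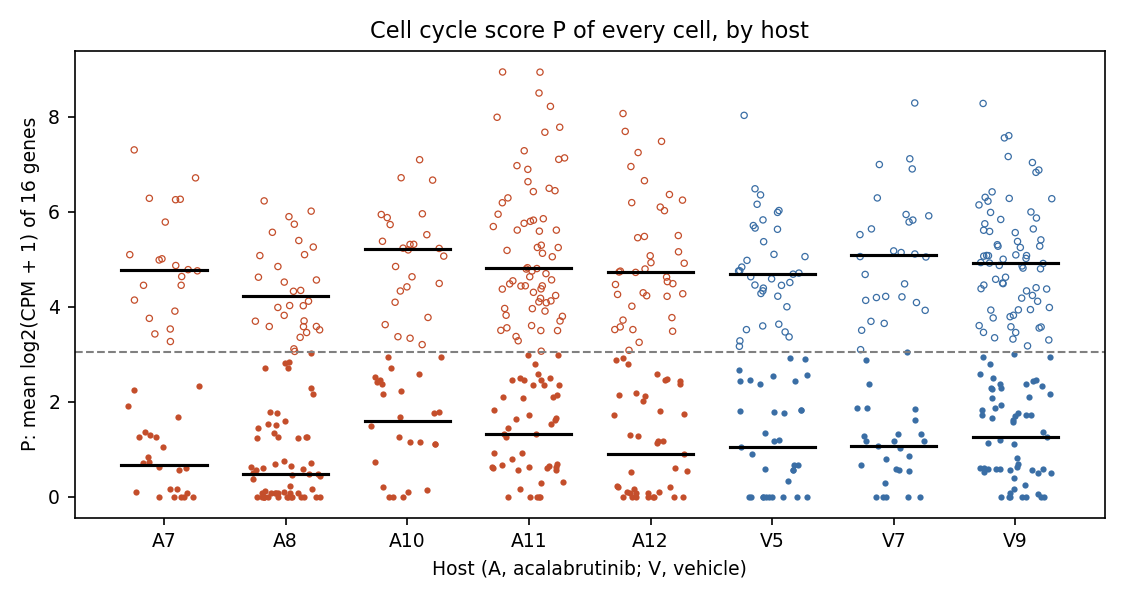
The cell cycle score P (vertical axis, mean log2(CPM + 1) of 16 genes) of each cell, by host (horizontal axis). Filled points are low-cycling and open points high-cycling cells, black bars are the medians of both kinds of cells in a host, and the dashed line is the threshold between 3.04 and 3.06.

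Among the genes of P, *Mcm3*, *Mcm5*, *Mcm6* and *Pcna*, all of DNA replication, kept counts in the most low-cycling cells. *Mcm6*, a subunit of the replicative helicase, had 445, 185, 735, 635 and 516 CPM against 388, 443 and 464 CPM in acalabrutinib and vehicle hosts, in the host order above that is used throughout, with a count in 166 cells. *Pcna*, the sliding clamp of DNA polymerase, had 22.6, 36.2, 59.5, 75.9 and 67.1 CPM against 64.8, 35.3 and 61.6 CPM. The other genes of P, of replication as of mitosis, were held by fewer cells. *Rrm2* and *Gins2*, of replication, had counts in 46 and 23 cells, and *Tpx2*, of mitosis, in 46. *Ccnb2*, a cyclin of G2/M, had counts in 31 cells and levels of 0.0738, 26.3, 30.4, 41.4 and 2.23 CPM against 93.6, 0.0540 and 44.3 CPM, and *Plk1*, a mitotic kinase, had counts in 8 cells. In *Plk1*, 1 cell held 95.6% of all counts. A low-cycling cell had counts for a median of 1 to 4 of the 16 genes, depending on the host.

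The profiles were those of GC B cells in every host. The summed level of 14 B cell genes was 12486 to 16262 CPM in the acalabrutinib and 13286 to 16495 CPM in the vehicle hosts, and that of 9 GC genes, *Bcl6* among them, 3006 to 4157 and 2895 to 4082 CPM. Genes of other cells were near 0: 12 T cell genes summed to at most 48.4 CPM, 7 NK cell genes to at most 64.4 CPM and 10 macrophage genes to at most 61.5 CPM, with *Cd14* and *C1qa* at 0. Endothelial genes summed to 422 CPM in A8 and 79.6 to 185 CPM in the other hosts, and most of this came from *Pecam1*. *Pecam1* had a mean of 149 CPM over the hosts and at most 392 CPM in a host. The means of *Cdh5*, *Emcn*, *Kdr*, *Vwf* and *Tek* were 0.498, 0.234, 2.69, 7.83 and 11.1 CPM. Stromal, neutrophil and erythroid genes summed to at most 57.3, 8.79 and 18.2 CPM, with *Cxcl13* and *Clu* at 0. Long genes of the nervous system summed to 556 to 2180.1 CPM and 629.7 to 1796 CPM, and the origin of these counts was not tested. The ranges of the 2 treatments overlapped for each of the 11 marker lists, and the part of these genes in the results was not tested. Genes of naive B cells, such as those of cells outside the GC, summed to 516, 720.3, 677, 616 and 823 CPM in the acalabrutinib and 798, 826 and 851 CPM in the vehicle hosts, where A12 alone of the acalabrutinib hosts lay within the vehicle range.

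Depth overlapped between the treatments. Summed low-cycling profiles held 13543301 to 45525956 counts. In units of 1000 counts, the median low-cycling cell had 592, 644, 666, 792 and 847 in the acalabrutinib hosts and 561, 700.4 and 738 in the vehicle hosts. The host medians were 708 ± 106.9 (SD, n = 5) against 666 ± 93.2 (SD, n = 3; exact two-sided permutation test, p = 0.61, adjusted p = 0.91 over 3 measures). Genes with a count numbered 3651 ± 326 (SD, n = 5) and 3491 ± 388 (SD, n = 3; exact permutation p = 0.55, adjusted p = 0.91). The mitochondrial share of counts was 0.796 ± 0.146% (SD, n = 5) and 0.810 ± 0.0926% (SD, n = 3; exact permutation p = 0.95). With 56 ways to split 5 and 3 hosts, the smallest p this test allows is 0.018.

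No gene of the low-cycling cells passed the test for a difference between acalabrutinib and vehicle. Of 14506 genes with enough counts, edgeR's quasi-likelihood test called 0 (0%) at a Benjamini-Hochberg adjusted p under 0.05, and the smallest adjusted p was 1.0. At an unadjusted p under 0.05 there were 531 (3.66%), of which 354 (2.44%) were higher and 177 (1.22%) lower with acalabrutinib. The balance of directions was not stable, with 197 higher and 298 lower without V5, 213 and 232 without V7, 519 and 1925 with no filter on low counts, and 170 and 291 by limma on mean log2(CPM + 1) per cell. In the main fit the excess of higher genes lay mostly among sparse genes. Higher and lower genes numbered 187 and 43 among those found in under 5% of cells, and 64 and 24 in 5 to 10%. They numbered 50 and 65 in 10 to 25% of cells, 38 and 36 in 25 to 50%, and 15 and 9 in 50% or more. DESeq2, fitted to the same genes, called 86 (0.593%), which are described at the end. Hosts of the 2 treatments did not overlap in 344 genes (2.37%), 157 of which were higher (1.08%) and 187 lower (1.29%) with acalabrutinib. The median log2 difference, acalabrutinib minus vehicle, over all tested genes was 0.029, with quartiles of -0.45 and 0.62. The replicates are mice, and the p-values set the treatment difference against the spread between these 8 mice, taken as independent. Some of them may share an experiment or a sorting plate, which the fit did not take into account.

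How narrow a difference could be pinned down depended on how many cells held counts for a gene. In the 1775 tested genes with a count in at least 50% of low-cycling cells, the median half-width of the 95% interval of the log2 difference was 0.71, and for 935 of them (52.7%) the whole interval lay within 1 of 0, a log2 difference of 1 being a doubling. In the 2984 genes found in 25 to 50% of cells the median half-width was 1.08. It was 2.16 in the 4778 genes found in 10 to 25% of cells, and 5.40 in the 2456 genes found in under 5%, of which 0 had an interval within 1 of 0. *Irf4*, a gene that marks selection, falls in a sparse class, with counts in 25 cells. Its interval was -2.81 to 3.84, so that a difference of several fold in it could go undetected here. Of all tested genes, 1595 (11%) had intervals within 1 of 0.

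The BCR and its proximal signaling genes were measured in most cells, and none was called. All 24 members of this list were tested, 12 had a log2 difference above 0 and 12 below, and the median was -0.0095. For 21 of the 24, the 95% interval lay within 1 of 0. *Cd79a*, a signaling chain of the BCR, had 991, 882, 736, 693 and 712 CPM in the acalabrutinib hosts and 812, 859 and 678 CPM in the vehicle hosts. Its log2 difference was 0.021 ± 0.21 (SE), with an interval of -0.46 to 0.50, and the hosts of both treatments overlapped, with A7 and A8 above the vehicle hosts. *Syk*, the kinase that the BCR recruits, had 502, 863, 341, 495 and 597 CPM against 581, 506 and 452 CPM and an interval of -0.54 to 0.76. *Blnk*, the adaptor that brings BTK to its substrate, and *Plcg2*, that substrate, had log2 differences of -0.12 ± 0.19 and -0.062 ± 0.21. The highest and lowest member of a list, here and below, are those with a mean of at least 20 CPM, and members named beyond these were picked for their role or their p after the values had been seen.

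The target of the drug was itself detected in 209 low-cycling cells. *Btk* had 227, 482, 174, 368 and 422 CPM in the acalabrutinib hosts and 498, 609 and 285 CPM in the vehicle hosts, which is 335 ± 130.3 CPM (SD, n = 5) against 464 ± 164 CPM (SD, n = 3). The 2 lowest hosts were A10 and A7, both given acalabrutinib, and the other 3 acalabrutinib hosts lay within the vehicle range. The log2 difference was -0.51 ± 0.37, with an interval of -1.33 to 0.31 (exact permutation p = 0.29). Counts of *Btk* RNA do not report the activity of the kinase. *Tec*, a related kinase that B cells also use, had a log2 difference of -0.17 ± 0.24. Of the 5 TEC family kinases 4 were tested and none was called.

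*Grb2* and *Bcl10* were the extremes of the proximal list. *Grb2*, an adaptor between receptors and RAS, had 788, 870.2, 715, 456 and 504 CPM against 391, 651 and 510.1 CPM and a log2 difference of 0.36 ± 0.28. *Bcl10*, which acts with MALT1 between the BCR and NF-κB, had 83.4, 73, 147, 111 and 60 CPM against 174, 181 and 124 CPM. The vehicle hosts were all above 4 of the 5 acalabrutinib hosts, while A10 was above V9. Its log2 difference was -0.79 ± 0.34 with an interval of -1.56 to -0.024, and it was the 1 member of the 24 with an unadjusted p under 0.05 (edgeR p = 0.044, adjusted p = 1.0).

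**Figure D2:**
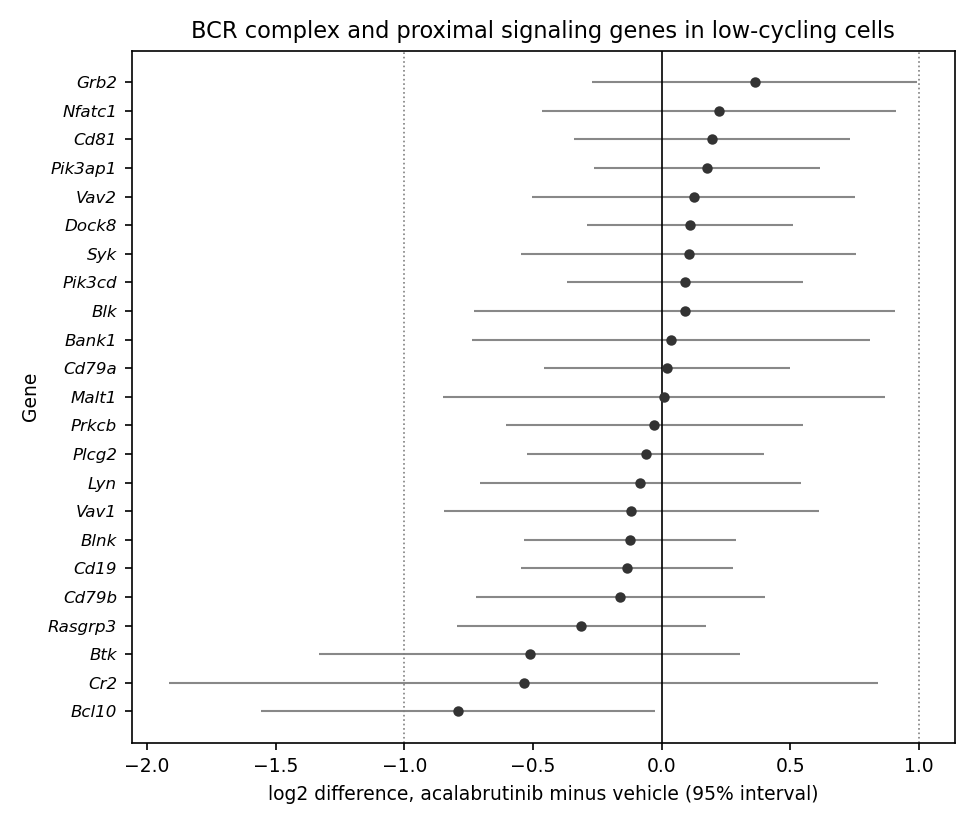
Log2 difference between acalabrutinib and vehicle hosts (horizontal axis) for 23 genes of the BCR and its proximal signaling (vertical axis) in low-cycling cells, with 95% intervals from edgeR. Dotted lines mark log2 differences of 1 and -1. The intervals of 20 genes lie between them, and that of *Bcl10* alone excludes 0, before adjustment for all genes tested.

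None of the inhibitors of BCR signaling was called. All 17 were tested, 9 above and 8 below 0, with a median of 0.055. *Ptpn6*, the phosphatase SHP-1, had 1256, 1105, 1232, 1005 and 943 CPM against 1196, 1337 and 1039 CPM and a log2 difference of -0.12 ± 0.19, and *Cd22*, a lectin that recruits it, one of 0.090 ± 0.24. Highest was *Dgka*, a kinase that removes the second messenger diacylglycerol, at 212, 73.8, 87.2, 74.7 and 53 CPM against 58.3, 18.8 and 69.9 CPM. Host A7 stood above all others there, and the interval of -0.28 to 2.40 included 0. *Dgkz*, which acts on the same messenger, was lowest at -0.22 ± 0.43.

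Transcripts induced within minutes to hours of BCR stimulation were sparse. Of 22 such genes 16 had enough counts to be tested, with a median log2 difference of -0.046 and a median of 13.8% of cells with a count. *Cd83*, an LZ marker and the one of these genes found in most cells, had 2099.6, 1746, 2003, 1851 and 1496 CPM in the acalabrutinib hosts and 2008, 1838 and 1622 CPM in the vehicle hosts. The log2 difference was -0.0087 ± 0.18 and its interval -0.42 to 0.40. *Nr4a1*, an orphan nuclear receptor used as a reporter of BCR signals, had counts in 34 cells and 63.2, 11.3, 33, 16 and 10.9 CPM against 0.336, 14.3 and 37.8 CPM. V5 was the lowest host and A7 the highest, and the others were mixed. *Egr1* and *Egr2*, zinc finger factors induced by receptor signals, had log2 differences of -0.45 ± 0.37 and -1.21 ± 0.99, and *Egr2* had 31.5, 4.29, 19.6, 73.3 and 2.18 CPM against 43.5, 54.1 and 82.7 CPM, so that A11 lay among the vehicle hosts and the other 4 acalabrutinib hosts below them. *Zfp36*, which destabilizes cytokine mRNAs, had 207, 129, 138, 147 and 148 CPM against 231, 268 and 147 CPM, with an interval of -1.17 to 0.15. The 1 member with an unadjusted p under 0.05 was *Nr4a3* (edgeR p = 0.031, adjusted p = 1.0), with counts in 12 cells, at 21.5, 11.7, 0, 5.60 and 0.0871 CPM against 0.0480, 0.0540 and 0 CPM. A7 was the highest host, and A10 was at 0 as V9 was. *Nr4a3* entered the fit through acalabrutinib hosts alone. *Fos*, *Fosb* and *Jun* were not tested, having too few counts.

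NF-κB subunits and targets, 16 of 16 tested, had a median of -0.055, and none reached an unadjusted p under 0.05. *Rel*, a subunit that GC B cells need, had 811, 726, 557, 530.5 and 541 CPM against 675, 524 and 680.2 CPM and an interval of -0.50 to 0.52. *Nfkbie*, an inhibitor of NF-κB, was the highest, at 0.72 ± 0.37. *Cflar*, an inhibitor of caspase-8, was the lowest, at 109, 117, 43.3, 122 and 91.6 CPM against 135, 145 and 168 CPM. All 5 acalabrutinib hosts were below the vehicle hosts in *Cflar*, as in 1.29% of all genes, and the interval was -1.43 to 0.16.

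*Myc*, which marks LZ cells that have received help, was detected in 75 low-cycling cells, 45 of the acalabrutinib and 30 of the vehicle hosts. It had 67.4, 179, 131, 273 and 109.7 CPM in the acalabrutinib hosts and 66.4, 102 and 253 CPM in the vehicle hosts, which is 152 ± 78.6 CPM (SD, n = 5) against 140.4 ± 99.4 CPM (SD, n = 3). The hosts of each treatment covered nearly the same range, so that hosts differed more within a treatment than the treatments did (log2 difference 0.13 ± 0.49, interval -0.96 to 1.21). The MYC network (11 of 12 tested) had a median of 0.19 and its 23 targets one of 0.0029, with 0 members at an unadjusted p under 0.05 in either. *Mga*, a MAX partner that opposes MYC, was highest of the network, at 0.55 ± 0.42, and *Mlxip*, a sensor of glucose, lowest, at -0.22 ± 0.48. *Tfap4*, a factor downstream of MYC that sustains GC B cells, had 9.75, 2.23, 23.2, 6.44 and 6.85 CPM against 0, 0 and 4.66 CPM, with counts in 25 cells. An exact permutation test on log2(CPM + 1) was also run on single named genes. Among them were 15 of BCR signaling and selection, from *Btk* to *Polh* in the plot of these genes. *Tfap4* was the 1 of these 15 with a p under 0.05 (exact permutation p = 0.036, not adjusted for the genes tested), and its host A8 lay below V9. With a pseudocount of 10 in place of 1 the number among the 15 was 0. Genes outside the 15 also had such p-values, among them *Efnb1* and *Acaca* (exact permutation p = 0.036 for each, unadjusted).

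Among targets of MYC, *Ncl*, a nucleolar protein, had 468, 385, 583, 645 and 418 CPM against 652, 325 and 552 CPM, and *Ldha*, of glycolysis, 569, 476, 708, 697 and 531 CPM against 509.8, 375 and 530.1 CPM, with log2 differences of -0.054 ± 0.26 and 0.32 ± 0.20. *Cad*, of pyrimidine synthesis, and *Polr1b*, of RNA polymerase I, were the extremes of the list, at 0.56 ± 0.96 and -0.76 ± 0.53. Nutrient transport, glycolysis and one-carbon genes (20 of 20 tested) had a median of -0.010. *Gapdh* was between 326 and 383 CPM in all 8 hosts. *Asns*, asparagine synthetase, was highest at 1.41 ± 1.41, with counts in 27 cells, and *Hk2*, a hexokinase, lowest at -0.52 ± 1.05.

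None of the receptors for T cell help and costimulation was called. Of 22 genes 19 were tested, with a median of 0.011. *Cd40*, the receptor for the main helper signal, had 318.8, 169, 178, 186 and 277 CPM in the acalabrutinib hosts and 231, 187 and 254 CPM in the vehicle hosts. Its log2 difference was 0.0053 ± 0.28, with an interval of -0.63 to 0.64. *Cd86*, a ligand of CD28, and *Icam1*, which holds B and T cells together, had 549 ± 154 CPM (SD, n = 5) against 534 ± 109 CPM (SD, n = 3) and 177 ± 59.5 CPM (SD, n = 5) against 153 ± 32.4 CPM (SD, n = 3). *Tnfrsf14*, a ligand of BTLA, had 17.4, 52.3, 82.3, 78.7 and 51.3 CPM against 30.8, 32.3 and 40.9 CPM, and *Il21r*, the receptor for the Tfh cytokine IL-21, had an interval of -0.50 to 0.34. *Traf3*, an adaptor that restrains CD40 and BAFF receptor signals, was the 1 member with an unadjusted p under 0.05 (edgeR p = 0.026, adjusted p = 1.0), at 394, 152, 235, 111 and 223 CPM against 113, 51.5 and 127 CPM. A11 lay below V9 and V5 there, and the other 4 acalabrutinib hosts lay above all 3 vehicle hosts. *Slamf6*, which supports long contacts with T cells, was the lowest member, at -0.66 ± 0.45.

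MHC class II presentation genes gave the narrowest intervals. Of 13 genes 12 were tested, and for all 12 the interval lay within 1 of 0, with a median of -0.019. *Cd74*, the invariant chain, was found in every low-cycling cell and had 2809.8, 2339, 2072, 1826 and 2046 CPM in the acalabrutinib hosts and 2385, 2217 and 2049.9 CPM in the vehicle hosts. *H2-Aa*, a class II chain, had a log2 difference of -0.12 ± 0.18. *Marchf1*, which removes class II from the surface, was highest, at 0.32 ± 0.30.

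**Figure D3:**
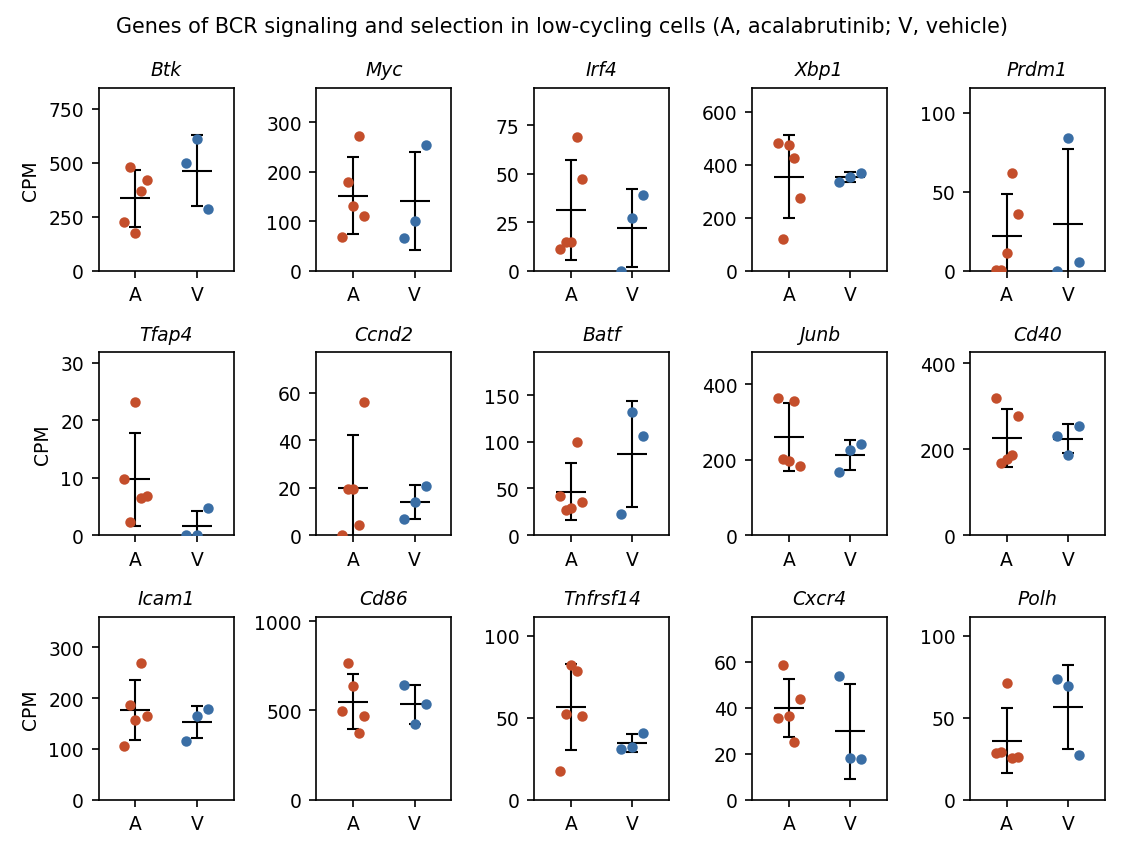
Level in CPM (vertical axes, each from 0) of 15 genes of BCR signaling and selection in the low-cycling cells of each acalabrutinib (A) and vehicle (V) host. Points are hosts, and bars the mean and SD of 5 and 3 hosts, cut off at 0. The points of the 2 treatments overlap in every panel.

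Transcription factors of the GC program had a median of 0.0068 over 20 tested genes, and 16 had intervals within 1 of 0. *Bcl6*, the factor that sets the GC fate, had 513, 492, 392, 355 and 427 CPM in the acalabrutinib hosts and 379, 423 and 320.1 CPM in the vehicle hosts. The log2 difference was 0.20 ± 0.23. *Bach2*, which restrains plasma cell differentiation, had 4258, 5163, 3674, 2717 and 3414 CPM against 3436, 3919 and 3355 CPM, and its interval was -0.41 to 0.60. *Irf8* had 884, 962, 811, 739 and 836 CPM against 1056, 1145 and 948 CPM, where the lowest vehicle host, V9, was below A8 alone, and the interval was -0.73 to 0.066. *Batf*, a factor of selected cells, was the lowest of the list, at 41.9, 27, 29.2, 99.8 and 35 CPM against 22.7, 132 and 106 CPM, with V5 below all 5 acalabrutinib hosts. *Junb*, its partner, had 363, 201, 197, 355 and 183 CPM against 167, 227 and 243 CPM and a log2 difference of 0.29 ± 0.31.

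Genes of plasma cell fate were rare in these cells. *Irf4* had counts in 25 and *Prdm1*, which encodes BLIMP-1, in 21 low-cycling cells. *Prdm1* levels were 0.369, 0.163, 11.4, 62.1 and 35.8 CPM against 0.0480, 84 and 5.51 CPM, with 50% of all its counts in 2 cells. *Xbp1*, of the secretory program, had counts in 156 cells and 481, 118, 473, 425 and 276 CPM against 335, 354 and 370.1 CPM. Host A8 was the lowest, the vehicle hosts lay close together within the acalabrutinib range, and the log2 difference was -0.0090 ± 0.39. The list (10 of 12 tested) had a median of -0.042.

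Memory B cell genes (13 of 15 tested) had the lowest median of all lists, -0.24, with 6 members above and 7 below 0 and none at an unadjusted p under 0.05. *Mndal*, an interferon-inducible gene of the memory list, had 4.80, 7.15, 0.177, 24.7 and 0.0871 CPM in the acalabrutinib hosts and 35.6, 50.9 and 60 CPM in the vehicle hosts. The acalabrutinib hosts were all below the vehicle hosts, 20 cells of 197 and 18 of 121 had a count, and 50% of all counts came from 4 cells. The log2 difference was -2.75 ± 1.46 with an interval of -6.0 to 0.50. *Efnb1*, an ephrin of GC B cells, was the highest, at 133, 73.5, 64.3, 67.6 and 20.3 CPM against 42.8, 0 and 18.6 CPM. A12 was the one acalabrutinib host below V5, and V7 was at 0.

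Positioning genes (15 of 17 tested) had a median of -0.064. *Cxcr5*, which draws cells to the follicle, and *S1pr2*, which confines them to the GC, had log2 differences of -0.034 ± 0.21 and -0.16 ± 0.25. *Cxcr4*, which draws cells to the dark zone, had 35.7, 58.7, 36.4, 24.9 and 43.9 CPM against 53.8, 17.9 and 17.7 CPM, with V5 near the top and V7 and V9 at the bottom of the range. *S1pr1* and *S1pr4*, receptors of egress, were the extremes, at 0.74 ± 1.64 and -0.48 ± 1.32. In somatic hypermutation and mismatch repair 14 of 14 genes were tested, 2 above and 12 below 0, with a median of -0.19 and 0 at an unadjusted p under 0.05. *Polh*, an error-prone polymerase, was the lowest, at 28.7, 29.3, 70.9, 25.1 and 25.8 CPM against 73.4, 69.4 and 27 CPM, where 1 host of each treatment lay with the other treatment. *Apex2*, an endonuclease, was the highest, at 0.95 ± 0.66.

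Genes that prevent apoptosis (14 of 15 tested) had a median of 0.064 and those that promote it (17 of 20 tested) one of 0.30. *Mcl1*, which GC B cells need to survive, had 138, 123, 55.9, 114 and 99.7 CPM in the acalabrutinib hosts and 60.9, 149 and 128 CPM in the vehicle hosts. The log2 difference was -0.078 ± 0.40. *Bcl2l1*, which encodes BCL-XL, had 11.5, 106.96, 129, 40 and 127 CPM against 66, 277 and 154 CPM and was the lowest of the first list, at -1.03 ± 0.68, with A7 low and V7 high. *Akt1*, a survival kinase, was the highest, at 1.34 ± 0.86. Of the second list, *Bcl2l11*, which encodes BIM, had 146, 96.1, 14.2, 42.6 and 54.9 CPM against 49.2, 59 and 68.6 CPM, and its interval ran from -1.20 to 1.80. *Apaf1* and *Casp9*, of the apoptosome, were the extremes, at 1.41 ± 1.43 and -0.31 ± 0.56, and *Bid* and *Trp53* were detected in more cells and had log2 differences of -0.22 ± 0.24 and 0.037 ± 0.23. *Bik* was the 1 member with an unadjusted p under 0.05 (edgeR p = 0.020, adjusted p = 1.0), from counts in 7 cells. It entered the fit through acalabrutinib hosts alone.

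FOXO targets and regulators of PI3K had the highest median of all lists, 0.39, with 13 of 17 tested members above 0 and 4 below, against 7520 of 14506 genes above 0 in all. None was called. *Sesn3*, a FOXO target that restrains mTORC1, had 130.2, 161, 80.3, 86.2 and 114 CPM in the acalabrutinib hosts and 36.2, 68.8 and 43.5 CPM in the vehicle hosts. The 5 acalabrutinib hosts were all above the 3 vehicle hosts, as in 1.08% of all genes, and its log2 difference was 1.20 ± 0.41 (edgeR p = 0.015 unadjusted, adjusted p = 1.0). *Foxo1* had a log2 difference of 0.20 ± 0.22. *Tsc22d3*, the highest, had 170.1, 36.9, 2.54, 61.9 and 0.900 CPM against 3.50, 34.2 and 25.9 CPM, with A7 above all other hosts. *Rptor*, a subunit of mTORC1, was the lowest of these, at 145, 119, 125, 150.2 and 140.0 CPM against 106, 348 and 135 CPM, with V7 above all other hosts, which overlapped. *Cdkn1b*, the CDK inhibitor p27, had 14.7, 2.85, 4.89, 16.3 and 4.99 CPM against 23.4, 29.4 and 16.4 CPM and its vehicle hosts were all above the acalabrutinib hosts, with an interval of -3.88 to 1.03.

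Cell cycle genes outside P move with P across cells, so their levels here follow in part from the choice of cells. G1 cyclins, kinases and inhibitors (16 of 17 tested) had a median of 0.0083. *Ccnd3*, the main D cyclin of GC B cells, had 951, 804, 528, 505 and 573 CPM against 902, 749 and 579 CPM. *Ccnd2*, another D cyclin, had counts in 21 cells and an interval of -3.11 to 4.12. *Ccne1* and *Cdk2*, partners at the start of S phase, were the extremes, at 1.45 ± 1.55 and -0.50 ± 0.44. The other S and G2/M genes (20 of 22 tested) had a median of -0.12. *Mcm4*, another helicase subunit, was the 1 member with an unadjusted p under 0.05 (edgeR p = 0.049, adjusted p = 1.0), at 103, 231, 284, 302 and 274 CPM against 458, 271 and 404 CPM. *Mki67*, the proliferation marker Ki-67, had 91, 94.3, 82.2, 99.7 and 146 CPM against 236, 79.5 and 143 CPM, *Cdc45*, of the replicative helicase, was the highest at 0.96 ± 0.70, and *Ccna2*, a cyclin of S and G2, the lowest at -1.57 ± 2.12.

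None of the metabolic and stress genes was called. In cholesterol and fatty acid synthesis (18 of 18 tested, median -0.098) 3 members (16.7%, against 3.66% of all genes) had an unadjusted p under 0.05, 1 higher and 2 lower, and 0 were called. *Hmgcs1*, of the first steps of the cholesterol pathway, had 58.9, 56.3, 102, 101 and 81 CPM in the acalabrutinib hosts and 119, 234 and 117 CPM in the vehicle hosts, and the hosts did not overlap (edgeR p = 0.016 unadjusted, adjusted p = 1.0). *Dhcr7*, of its last step, had 0.369, 18.7, 5.37, 30.1 and 24.3 CPM against 24.5, 143 and 80.7 CPM, while *Acaca*, of fatty acid synthesis, had 155, 105, 200.1, 157 and 186 CPM against 24.9, 53.1 and 133 CPM, where V9 lay above A8. *Sqle* had a log2 difference of -1.03 ± 0.62, while that of *Cyp51* was 0.16 ± 0.55 and of *Srebf2*, the regulator of the pathway, 0.24 ± 0.22.

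In oxidative phosphorylation 19 of 19 nuclear genes were tested, with a median of -0.17. The highest was *Cycs*, cytochrome c, at 0.62 ± 0.80. The 9 tested mitochondrially encoded genes lay between -0.16 (*mt-Co1*) and 0.14 (*mt-Nd2*). Of chaperones of the ER and the unfolded protein response (17 of 17 tested, median 0.012), *Hspa5*, the chaperone BiP, had 535, 383, 859.6, 918 and 651 CPM against 654, 688 and 848 CPM. *Pdia4* and *Creld2* were the extremes, at 0.67 ± 0.45 and -0.49 ± 0.50. Heat shock genes (8 of 11 tested) ranged from -0.013 in *Hspa8* to 0.76 in *Dnajb1*, a co-chaperone of HSP70, with a median of 0.12.

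Of 16 interferon response genes 10 were tested, with a median of 0.14 and counts in a median of 8.65% of cells. *Irf9* and *Irf7*, factors of the response, had log2 differences of 1.15 ± 1.26 and -0.48 ± 0.77. *Isg15*, a ubiquitin-like modifier, had 6.79, 2.66, 6.78, 2.68 and 0.609 CPM against 0, 0 and 0 CPM. It was counted in 10 cells, all of acalabrutinib hosts and in each of the 5. Its counts there totalled 431, against 0 in the vehicle hosts (edgeR p = 0.0022 unadjusted, adjusted p = 1.0). Counts can be amplified copies of 1 molecule and came from few cells, so they set no limit on the fold difference. *Isg15* entered the fit through the acalabrutinib hosts alone. Of 12 immunoglobulin constant regions 9 were tested, and 1 (11.1%, against 3.66% of all genes) had an unadjusted edgeR p under 0.05. That member was higher with acalabrutinib, and none was called. *Ighg2c* had 0.960, 5.49, 3.95, 0 and 0 CPM against 0, 0 and 0 CPM, with counts in 3 cells. It entered the fit through acalabrutinib hosts alone. *Ighg1*, counted in 311 cells, had 1980.1, 1931, 2055, 1769.5 and 1594 CPM against 2108, 2267 and 1666 CPM and an interval of -0.54 to 0.27, and *Iglc2*, a lambda light chain, 187, 159, 220.4, 145 and 74.9 CPM against 241, 255 and 156 CPM. *Ighg2b* had counts in 11 cells and a log2 difference of 1.64 ± 2.27, and *Igkc* is listed at 0 in every host.

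**Figure D4:**
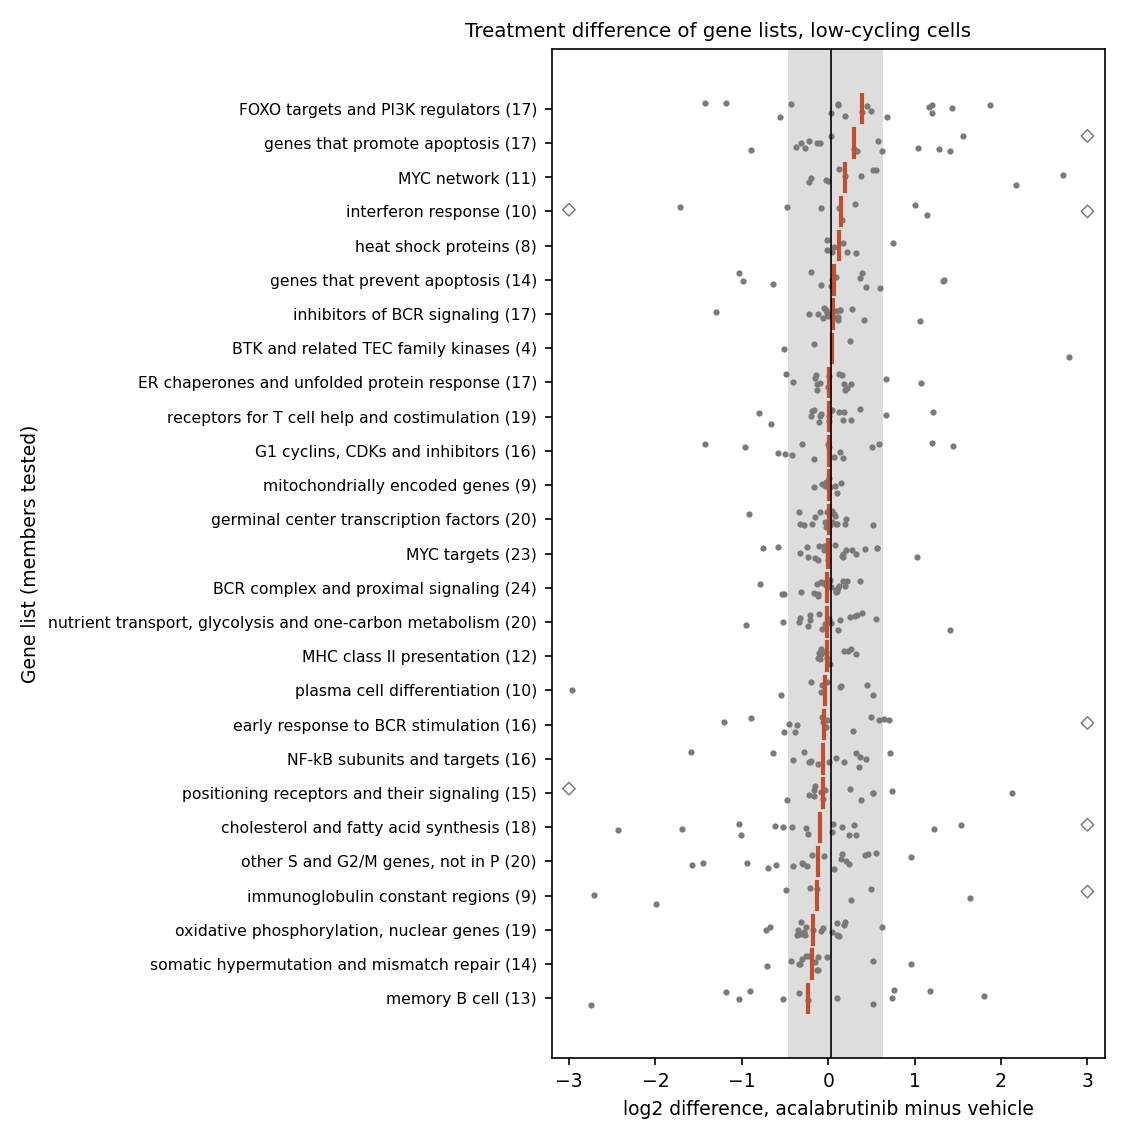
Log2 difference between acalabrutinib and vehicle in low-cycling cells (horizontal axis) of the tested members of 27 gene lists (vertical axis, number tested in brackets). Points are genes, red bars list medians, the black line and grey band the median and quartiles of all 14506 genes, and open diamonds stand for 7 values beyond 3 or -3. The list medians lie between -0.24 and 0.39, within the grey band.

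Over all 27 lists, 391 of 433 distinct genes were tested, and 7 higher and 5 lower ones had an unadjusted p under 0.05. That is 3.07% of the members, against 3.66% of all genes. Hosts did not overlap for 3 higher (0.767%) and 5 lower (1.28%) members, against 1.08% and 1.29% of all genes. For 158 members the interval lay within 1 of 0. List medians were between -0.24 and 0.39, and 24 of the 27 were within 0.2 of 0. For the 83 tested genes with a group at 0 counts, taking that group at 3 counts left the medians as they were to 2 decimals. A gene enters the fit when its counts pass a minimum in 3 hosts, so a sparse gene can enter through the group in which it is high, and the counts above describe the lists only.

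The genes picked here had the smallest p-values among those averaging 20 CPM or more and counted in 10% or more of low-cycling cells. *Sesn3* was the 1 member of the lists among them. They were picked by their p-values in this comparison, in each direction, and are given as a description. Sparser genes outside this filter also had small p-values, among them *Isg15* of the interferon list (edgeR p = 0.0022 unadjusted). *Ehbp1l1*, which encodes an adaptor of membrane traffic, had 173, 96.8, 119, 154 and 138 CPM in the acalabrutinib hosts and 44.2, 28.9 and 63.2 CPM in the vehicle hosts. Counts came from 57 of 197 cells and 19 of 121. The log2 difference was 1.59 ± 0.37, with an interval of 0.77 to 2.40 (edgeR p = 0.0014 unadjusted, adjusted p = 1.0).

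*Cnpy3*, a chaperone that Toll-like receptors need to fold, had 191, 157, 275, 189 and 129 CPM against 84.1, 38.1 and 96.9 CPM, and *Relch* 245, 284, 263, 223 and 222 CPM against 154, 134 and 156 CPM. In both, all acalabrutinib hosts lay above all vehicle hosts, and *Relch* had the narrowest interval of the higher genes, 0.25 to 1.20. *Jarid2*, a cofactor of the Polycomb complex PRC2, was detected in 313 cells and had 371, 193, 308, 299.8 and 275 CPM against 113, 131 and 195 CPM. A8 lay just below V9. *Macroh2a1*, a histone variant, had 95.5, 133, 117, 114 and 104 CPM against 51.3, 47.6 and 68.4 CPM. *Tfdp2*, a partner of E2F factors, and *Prmt7*, an arginine methyltransferase, had the widest gaps of this group, with log2 differences of 3.0 ± 0.86 and 2.57 ± 0.78, and 50% of their counts came from 7 and 12 cells. *Ino80d*, of a chromatin remodeler, and *Cep192*, of the centrosome, had log2 differences of 0.89 ± 0.28 and 0.90 ± 0.30.

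Of the lower genes, *Pnpla8*, a phospholipase, had 82.2, 103, 88.3, 95.4 and 111 CPM in the acalabrutinib hosts and 170.3, 229 and 155 CPM in the vehicle hosts, and a log2 difference of -0.98 ± 0.26 (interval -1.56 to -0.39). *Tomm70a*, an import receptor of the mitochondrial outer membrane, had 29.9, 71.8, 38.3, 42.5 and 11.3 CPM against 163, 143 and 103 CPM. Hosts did not overlap in either gene. *Mavs*, the mitochondrial adaptor of RNA sensing, had 46.4, 62.2, 30, 21.8 and 34 CPM against 211, 84.6 and 71.6 CPM, and *Kat6b*, a histone acetyltransferase, 59.6, 66.4, 90.4, 58.3 and 57.5 CPM against 109, 185 and 128 CPM. *Dcaf12*, a substrate receptor of a ubiquitin ligase, was detected in 233 cells, 50% of its counts came from 57 cells, the most of the genes picked in this way, and its levels were 502, 472, 490.4, 499 and 399.5 CPM against 605, 936 and 638 CPM. *Eps15*, of endocytosis, had a log2 difference of -0.64 ± 0.22, *Dtnb* -0.96 ± 0.29, *Rps6kb2*, an S6 kinase, -1.74 ± 0.60 and *Gpkow* -1.99 ± 0.67. Hosts of the treatments overlapped in *Jarid2*, *Ino80d* and *Gpkow*, and in none of the other genes picked in this way. That follows in part from the pick by p-value in the same profiles. Over all tested genes, hosts did not overlap in 2.37%.

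**Figure D5:**
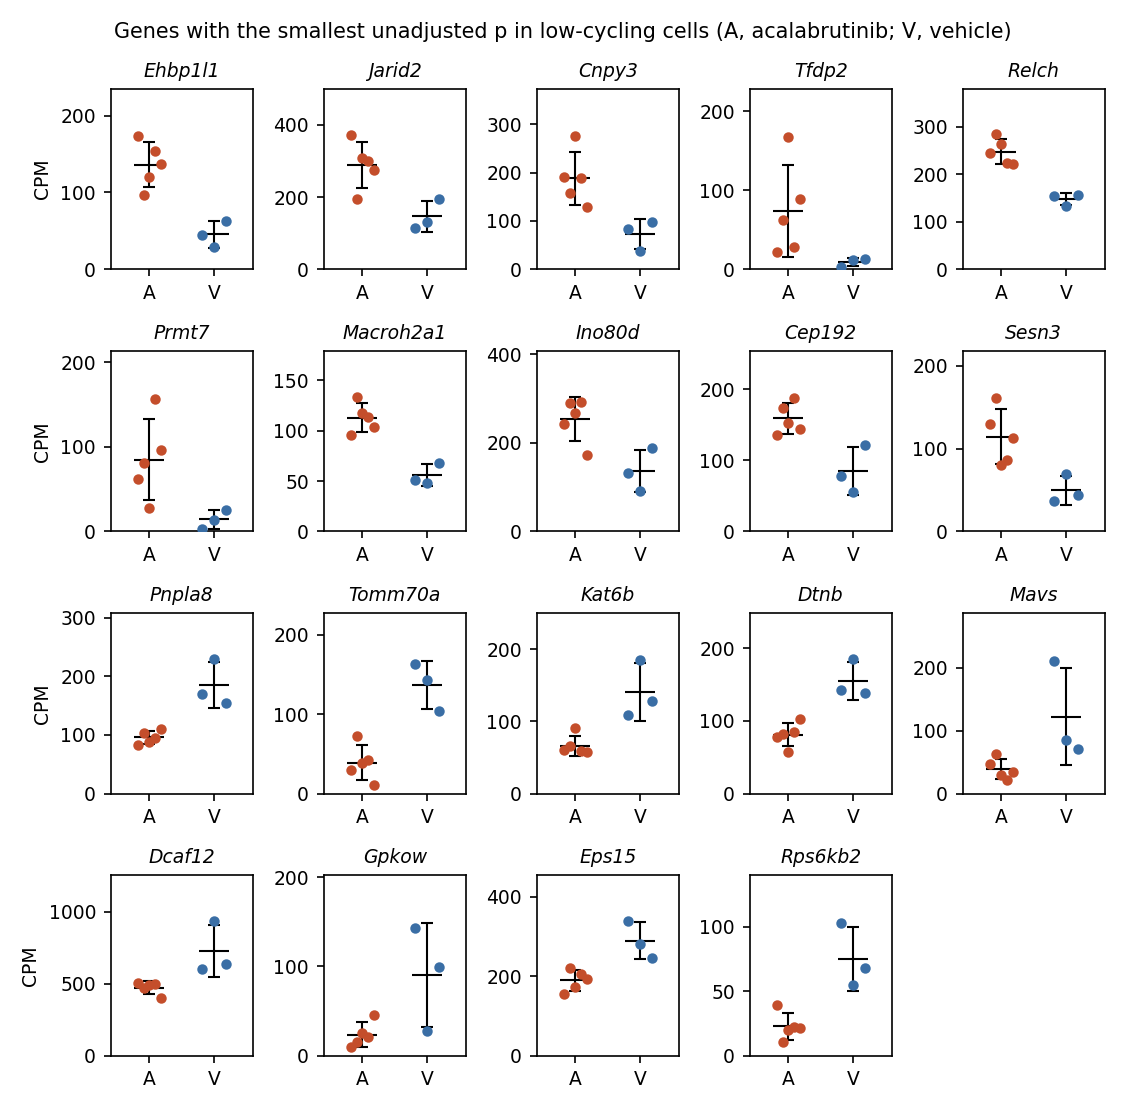
Level in CPM (vertical axes, each from 0) in the low-cycling cells of each acalabrutinib (A) and vehicle (V) host. Shown are 10 higher (upper 2 rows) and 9 lower genes (lower 2 rows). These had the smallest unadjusted p among genes averaging 20 CPM or more and counted in 10% or more of low-cycling cells. Points are hosts, bars the mean and SD of 5 and 3 hosts. The genes were picked for this difference, and the adjusted p of each was 1.0.

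No gene was called in the high-cycling cells of the same hosts either. There edgeR called 0 of 14946 genes, with 432 (2.89%) at an unadjusted p under 0.05, and DESeq2 called 54 (0.361%). In all cells together edgeR called 0 of 18016 genes, with 616 (3.42%) at an unadjusted p under 0.05, and DESeq2 105 (0.583%). Whether the treatment difference itself differed between low-cycling and high-cycling cells was tested with the host as a term. There edgeR called 0 of 18034 genes, 506 (2.81%) had an unadjusted p under 0.05, and DESeq2 called 315 (1.75%). No gene is therefore shown by the main test to respond in low-cycling cells alone.

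Several genes with small p-values in low-cycling cells had other patterns in the high-cycling cells of the same hosts. *Jarid2* had 113, 62.8, 175, 131 and 174 CPM in the high-cycling cells of the acalabrutinib hosts and 291, 178 and 208 CPM in those of the vehicle hosts, where the acalabrutinib hosts lay below the vehicle hosts. Its log2 difference was 0.98 ± 0.27 in low-cycling and -0.82 in high-cycling cells, with an interaction of 1.84 (edgeR p = 0.00087 unadjusted, adjusted p = 1.0). *Tomm70a* had 69.9, 63, 87.2, 32.6 and 32.9 CPM and 19.4, 22.6 and 46.2 CPM in high-cycling cells, and an interaction of -2.98. *Sesn3* had log2 differences of 1.20 and -0.22 in low-cycling and high-cycling cells. *Btk* had -0.51 and -0.26, with an interaction of -0.22. Since these genes were picked on the low-cycling cells, a smaller difference in the other cells is a description only.

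The 86 genes that DESeq2 called in low-cycling cells, 76 higher and 10 lower with acalabrutinib, were sparse. They had counts in a median of 14 cells (range 4 to 94), against a median of 51 for all tested genes, and 50% of a gene's counts came from a median of 2 cells. Each of the 86 had an unadjusted p under 0.05 in edgeR, and none an adjusted p under 0.05. *Trpm1*, a cation channel of melanocytes and the retina, had the smallest adjusted p (DESeq2, 6.6e-13) and 0.148, 0.0815, 0.118, 0.256 and 0.203 CPM in the acalabrutinib hosts and 37.3, 30.7 and 22.3 CPM in the vehicle hosts. It had counts in 18 cells of each treatment, and 1 cell held 32.4% of them. *Bbs2*, of the ciliary BBSome, had 19.7, 27, 9.26, 35.3 and 23.1 CPM against 0, 0 and 0.0220 CPM, from counts in 12 cells and 1 cell. Sparse genes can enter the fit through the group in which they are high. *Bbs2* entered through acalabrutinib hosts alone, and *Trpm1* through vehicle hosts alone. Of the tested members of the 27 lists, 2 (0.512%, against 0.593% of all genes) were called by DESeq2, *Isg15* and *Bik*. *Ehbp1l1*, *Tfdp2* and *Prmt7* were called as well, with adjusted p of 0.0072, 0.015 and 0.040 (DESeq2), and their counts came from 76, 55 and 54 cells.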

How the data were processed

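Counts of light zone B cells from 8 mice were analysed. The authors aligned SMART-seq2 reads to GRCm39 with STARsolo 2.7.10a and deposited whole-number counts per gene and cell, after removal of exact duplicates and with reads in exons and introns counted together. SMART-seq2 has no molecular identifiers, so amplified copies may still be counted. Several genes, among them *Igkc*, *Il2rg*, *Ly9* and *mt-Co2*, are listed at 0 in every low-cycling cell and were not analysed here. The host was read from the cell names, which share no repeated barcode. Genotype was not in the names, so it was not inferred.

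Each cell's CPM gave the score P, and the 50% of cells with the lowest P were kept. No further filter on cells was applied, since no cell had under 200 genes or over 5% mitochondrial counts, and no doublet caller was run. Counts were summed per host and tested with edgeR 4.0.16 in R 4.3.3 (quasi-likelihood test, TMM scaling, default filter on low counts, p-values adjusted by Benjamini-Hochberg over all genes tested), with no covariate. Intervals are 95% intervals of the fitted log2 difference. The same fit was made in high-cycling and in all cells, and a fit with hosts as a term tested the interaction. Single values were compared with a two-sided exact permutation test over hosts (scipy 1.17.1). The scripts were tested on simulated counts. DESeq2 1.42.0 and limma 3.58.1 were alternatives, as were other size factors, filters, definitions of P, thinned cells and each host left out.

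The members and the lists were chosen with earlier results of these data known. Named genes were the 10 with the smallest p in each direction among genes that averaged 20 CPM or more and were counted in 10% or more of the low-cycling cells, genes the study discusses, the genes of P, and the highest and lowest member of each of 27 lists. Values of 4 single genes are not reported here, though counts over lists include them.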

Additional observations from a re-analysis of the deposited data

Results flagged for a closer look

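In 12 of 104 genes and measures checked, 1 of the 5 acalabrutinib hosts lay far from the other 4 by Dixon's test. That test flags about 1 in 20 by chance where values are independent and normal. CPM of sparse genes is skewed and cannot fall below 0, so the 12 are a description and are not set against that rate. The 3 vehicle hosts are too few for this test. Among genes outside P, the highest host stood apart for *Kat6b* at 90.4 CPM (A10), *Batf* at 99.8 CPM (A11), *Polh* at 70.9 CPM (A10), *Dgka* at 212 CPM (A7), *Mndal* at 24.7 CPM (A11) and *H2-Aa* at 1619.8 CPM (A7). The lowest host stood apart for *Dcaf12* at 399.5 CPM (A12). Among genes of P, where the level is fixed in part by the choice of cells, the highest host stood apart for *Plk1* at 5.46 CPM, *Cenpf* at 6.09 CPM, *Hmmr* at 11.2 CPM, *Tpx2* at 63.9 CPM and *Ccne2* at 19.5 CPM.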

How the results depend on the processing

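The number of genes called by edgeR was 0 in low-cycling, high-cycling and all cells and for the interaction under every alternative run with edgeR or limma, which include each host left out, and DESeq2 called 86, 54, 105 and 315. At an unadjusted p under 0.05, edgeR gave between 340 (without A12) and 702 (without V9) genes in low-cycling cells against 531, 348 without A11 and 359 without A8, and 2444 with no filter on low counts. Restricted after seeing the data to genes counted in at least 10% or 25% of cells, it called 0 of 9537 and 0 of 4759, with 336 and 165 at an unadjusted p under 0.05, and limma on mean log2(CPM + 1) per cell, also added then, called 0 with 461. In these 2 restricted fits the smallest adjusted p (edgeR) was 0.19 at 10% and 0.999 at 25% of cells. The 1 gene of the 15 with an exact p under 0.05, *Tfap4*, became 0 with a pseudocount of 10, with the mean of CPM over cells and with thinned cells.

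The difference between host medians in counts per cell, in units of 1000 counts, was -1.52 in the 33.3% of cells with the lowest P and -10.8 to 77.6 with 1 host left out, that in genes per cell -30.9 to 357 and that in mitochondrial percent -0.066 to 0.031, and 0.000149 between host means. Of 84 single genes, 63 kept their sign in all of their alternatives, the 20 with the smallest p among them, and 21 changed sign under 1 or more. The 20 were picked by p-value in these same profiles, so their kept sign is a description only. With thinned cells *Myc* was at -0.0058, *Mlxip* at 0.012 and *Ighg2b* at -0.64. In the 33.3% lowest cells *Tfap4* was at -0.13, *Nr4a1* at -0.12, *S1pr1* at -0.080, *Cdk2* at 0.056, *Hspa8* at 0.079 and *Tec* at 0.0048. By limma *Cd40* was at -0.52, *Icam1* at -0.013, *Polh* at 0.24 and *S1pr1* at -0.020, and with a pseudocount of 10 in P *Cd86* was at -0.062. With DESeq2 and its size factors in edgeR *Xbp1* was at 0.015 in both and *Hspa8* at 0.0066 and 0.0067. With 1 host left out, *Myc* ran from -0.19 to 0.78, *Irf4* from -0.074 to 1.15, *Xbp1* from -0.19 to 0.21, *Prdm1* from -1.40 to 3.03, *Ccnd2* from -0.35 to 0.85, *Cd40* from -0.20 to 0.087, *Cd86* from -0.14 to 0.23, *Mlxip* from -0.37 to 0.054, *Casp9* from -0.63 to 0.12, *Rptor* from -0.84 to 0.18, *mt-Nd2* from -0.092 to 0.42, *Hspa8* from -0.15 to 0.13, *Irf7* from -0.97 to 0.50, *Ighg2b* from 0.87 to 4.67 and *S1pr1* from 0.042 to 1.23. The cause of these changes was not tested.

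No paired analysis was made, because each host received either acalabrutinib or vehicle and no pairing of hosts was given in the sources used here. With 8 hosts and 24 to 59 low-cycling cells each, a many-fold difference could go uncalled. This held for genes found in under 10% of cells and for some found in more. *Bbs2*, with counts in 13 cells and an edgeR log2 difference of 10.7, was not called by edgeR. *Tfdp2* and *Prmt7*, counted in 17.3% and 17.0% of cells, had edgeR log2 differences of 3.0 and 2.57 and were not called by edgeR either. A difference confined to the drug-sensitive genotype could not be seen apart from that of both.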
